A study of Mus musculus with 2 samples.

Results

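Cd44, Ptprc and Pkm are genes whose proteins change with the exons kept in the mRNA, and their isoforms were followed in adult mouse lung. The genes were chosen by name, with all of their transcripts in the quantified annotation: 3 genes of 43346, and 24 transcripts of 103639. Of these transcripts, 9 belonged to Cd44, 13 to Ptprc and 2 to Pkm. The samples were 2 polyadenylated RNA libraries of whole lung, labelled biological replicates 1 and 2, and formed 1 group: C57BL/6J mice aged 8 weeks, male and female littermates pooled, with no treatment and no transgene named in the labels. Neither the number of animals nor their state of health was given, and both libraries carried the same donor record, so the spread between them may be technical. With 1 group there was no contrast to test, and no p-value is given.

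Alternative splicing picks which exons of a gene enter the mature mRNA. Pkm encodes muscle-type pyruvate kinase, the last step of glycolysis, and includes either exon 9 (the M1 form, typical of muscle, heart and brain) or exon 10 (the M2 form, typical of lung, spleen, kidney and dividing cells), never both in a working protein. Cd44 encodes the cell surface receptor of hyaluronan, and its standard form, widespread on blood and connective tissue cells, skips a block of variable exons (v1 to v10) that epithelial cells can insert in the outer stem of the protein. Ptprc encodes CD45, the membrane tyrosine phosphatase of nucleated blood cells, whose exons 4, 5 and 6 add the A, B and C segments to its outer tail: naive T cells keep one or more of them, activated and memory T cells tend to skip them (the RO form lacks all 3), and B cells keep them (B220).

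The libraries held 48234758 expected counts in replicate 1 and 44182823 in replicate 2 over genes. Levels are given in TPM (transcript numbers after correction for length, scaled to a fixed total per library). Lung epithelial markers were present in both libraries, at 1 TPM or more for all 8 listed genes, led by Scgb1a1 of club cells and Sftpc of alveolar type 2 cells. Between the libraries 980 of 14708 genes with a mean count of 50 or more differed 2-fold or more on scaled counts (6.66%), the scale of every 2-fold count here; of these, 655 were higher in replicate 1 (4.45%) and 325 in replicate 2 (2.21%). Replicate 1 held markers of other tissues: all 10 squamous epithelium markers were over 2-fold higher there, at a summed level of 4239 TPM against 4.17 TPM in replicate 2, and so were all 10 skeletal muscle markers, at 2985 TPM against 90.8 TPM. Replicate 2 was higher for 5 of 6 erythroid markers and for all 6 intestine and pancreas markers, the last at 206 TPM against 5.28 TPM in replicate 1. In bulk RNA, more cells of a type and more RNA per cell cannot be told apart, nor can a change in cell makeup and a change in splicing within a cell.

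Pkm stood far above the other genes. It reached 592.09 TPM in replicate 1 and 496.92 TPM in replicate 2 (mean 544.5 ± 67.3, SD, n = 2). By mean TPM it ranked 191st of all 43346 genes, above 98.6% of the 13855 genes that reached 1 TPM in each library. Cd44 had 52.63 and 43.61 TPM (mean 48.1 ± 6.38, SD, n = 2), more than 79.1% of those genes. Ptprc had 33.76 and 34.52 TPM (mean 34.1 ± 0.537, SD, n = 2), more than 71.9% of them. Of this level, 11.14 and 17.39 TPM belonged to Ptprc-213, an incomplete model of 702 nt. That model held 198 and 302 of the gene's fragments, so the Ptprc level rests in large part on 1 short model. The order Pkm, Cd44, Ptprc was the same in both libraries, and the levels of Cd44 and Ptprc did not overlap.

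None of the 3 genes differed 2-fold between the libraries, against the 6.66% of all genes that did. On expected counts scaled by TMM (a scaling that sets most genes to no change), the log2 ratio of replicate 2 over replicate 1 was -0.12 for Cd44 (4569 over 5947 counts), -0.18 for Ptprc (2563 over 3486 counts) and -0.03 for Pkm (38944 over 47526 counts). As folds of replicate 1 over replicate 2, with 95% exact intervals for counting error only, these were 1.09 (1.04 to 1.13) for Cd44, 1.13 (1.08 to 1.19) for Ptprc and 1.02 (1.00 to 1.03) for Pkm. For Ptprc the direction depended on the scale, since TPM gave a log2 ratio of 0.03.

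Pkm (ENSMUSG00000032294.12) lies on the plus strand at chr9:59656368-59679375 of mm10. Its mutually exclusive exons are the same length, 167 bases, with exon 9 at chr9:59675029-59675195 and exon 10 at chr9:59675568-59675734, and both are coding throughout. The sequences are shown because a short read can be placed on M1 or M2 RNA only through them or their junctions: aligned base by base from the first position, 103 of 167 positions are identical (61.7%), with the longest identical run 12 bases. Capitals mark the 64 positions at which the other exon has a different base. Sequences here and below are from the mm10 transcripts of GENCODE M21, written 5′ to 3′ on the gene's strand.
Pkm exon 9 (M1): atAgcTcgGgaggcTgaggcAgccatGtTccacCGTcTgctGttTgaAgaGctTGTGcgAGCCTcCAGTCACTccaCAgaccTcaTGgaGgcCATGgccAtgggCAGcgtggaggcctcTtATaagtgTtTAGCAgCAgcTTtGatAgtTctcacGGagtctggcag
Pkm exon 10 (M2): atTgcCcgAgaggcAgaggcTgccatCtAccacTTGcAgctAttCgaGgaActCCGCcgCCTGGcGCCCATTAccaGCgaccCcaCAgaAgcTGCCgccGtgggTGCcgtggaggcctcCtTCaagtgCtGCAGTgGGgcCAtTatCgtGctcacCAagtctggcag

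M2 was the main form in both libraries. Pkm-201, the transcript with exon 10, had 459.12 TPM in replicate 1 and 425.77 TPM in replicate 2, which is 77.5% and 85.7% of the gene. Pkm-202, with exon 9, had 132.98 and 71.15 TPM, or 22.5% and 14.3%. The M1 share therefore averaged 18.4% ± 5.76 (SD, n = 2). By TPM, M1 was 1.87-fold higher in replicate 1 while M2 was 1.08-fold higher there. The log2 ratio of the gene was -0.25 by TPM and -0.03 on scaled counts. A fold as small as that of M2 therefore depends on the scale, in direction too. In the quantified annotation both transcripts are 2432 nt, so shares by expected count, at 22.5% and 14.3% M1, were the same as by TPM. The deposited TPM intervals of M1 (125 to 137 in replicate 1 and 66.2 to 75.0 in replicate 2) did not overlap, and neither did those of M2 (447 to 462 and 415 to 427).

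The library with the higher M1 level was also the one with more skeletal muscle RNA. The 10 muscle markers ran from 1.05 to 1684 TPM in replicate 1 and from 0 to 54.7 TPM in replicate 2, where Myh2, Myh4, Myh8 and Tnnc2 were listed at 0. The 7 cardiac muscle markers summed to 1527 TPM in replicate 1 and 1169 TPM in replicate 2. None of the 7 was 2-fold apart on scaled counts, beside 6.66% of all genes, so the count says little about this list. Tnnt2, cardiac troponin T, came nearest, at 66.2 and 29.1 TPM (log2 ratio of scaled counts -0.97). The part of either muscle in the M1 level was not tested.

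Among 24 measured genes of glycolysis with a mean count of 50 or more, 3 were 2-fold higher in replicate 1 and none in replicate 2, beside 4.45% and 2.21% of all genes, and the median log2 ratio was -0.37 against -0.0022 over all genes tested. The 3 encode the forms of glycolytic enzymes best known from muscle. Pfkm, a phosphofructokinase, had 47.2 TPM in replicate 1 and 18.2 TPM in replicate 2 (log2 ratio -1.14), Pgam2, a phosphoglycerate mutase, had 70.5 and 13.5 TPM (-2.16), and Eno3, an enolase, had 85.5 and 18.3 TPM (-1.99). The most abundant members were Gapdh, glyceraldehyde-3-phosphate dehydrogenase, at 1629 and 1230 TPM, and Aldoa, an aldolase, at 1198 and 637 TPM. Pklr, the pyruvate kinase gene of liver and red cells, had 0.99 and 0.88 TPM.

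A second readout was the deposited list of spliced reads, which gives reads over each junction on mm9 with both libraries summed. The junctions that tell the forms apart are shown with the last 20 bases of the first exon in lower case and the first 20 bases of the second in capitals.
Pkm exon 8 to exon 9: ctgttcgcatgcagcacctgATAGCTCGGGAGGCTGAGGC
Pkm exon 8 to exon 10: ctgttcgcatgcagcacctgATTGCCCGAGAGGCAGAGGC
Pkm exon 9 to exon 11: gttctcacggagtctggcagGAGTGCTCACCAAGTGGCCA
Pkm exon 10 to exon 11: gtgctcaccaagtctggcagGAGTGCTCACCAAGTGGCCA

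Upstream of the alternative exons, the junction reads gave the same majority form as the transcript estimates. Exon 8 joined exon 10 in 2703 reads and exon 9 in 670 reads, an exon 9 share of 19.9% (95% Clopper-Pearson interval 18.5 to 21.3, counting error only), within the range of the libraries' TPM shares. Downstream, the order was turned round: 579 reads joined exon 9 to exon 11, and 80 joined exon 10 to exon 11, an exon 9 share of 87.9% (85.1 to 90.3). Exon 9 was entered and left by similar numbers of reads, 670 and 579, whereas exon 10 was entered by 33.8 times as many reads as left it. The cause of the low exon 10 to exon 11 tally was not tested. Joins that leave out both exons or keep both were rare, with 2 reads from exon 8 to exon 11 and 1 read from exon 9 to exon 10.

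**Figure D1:**
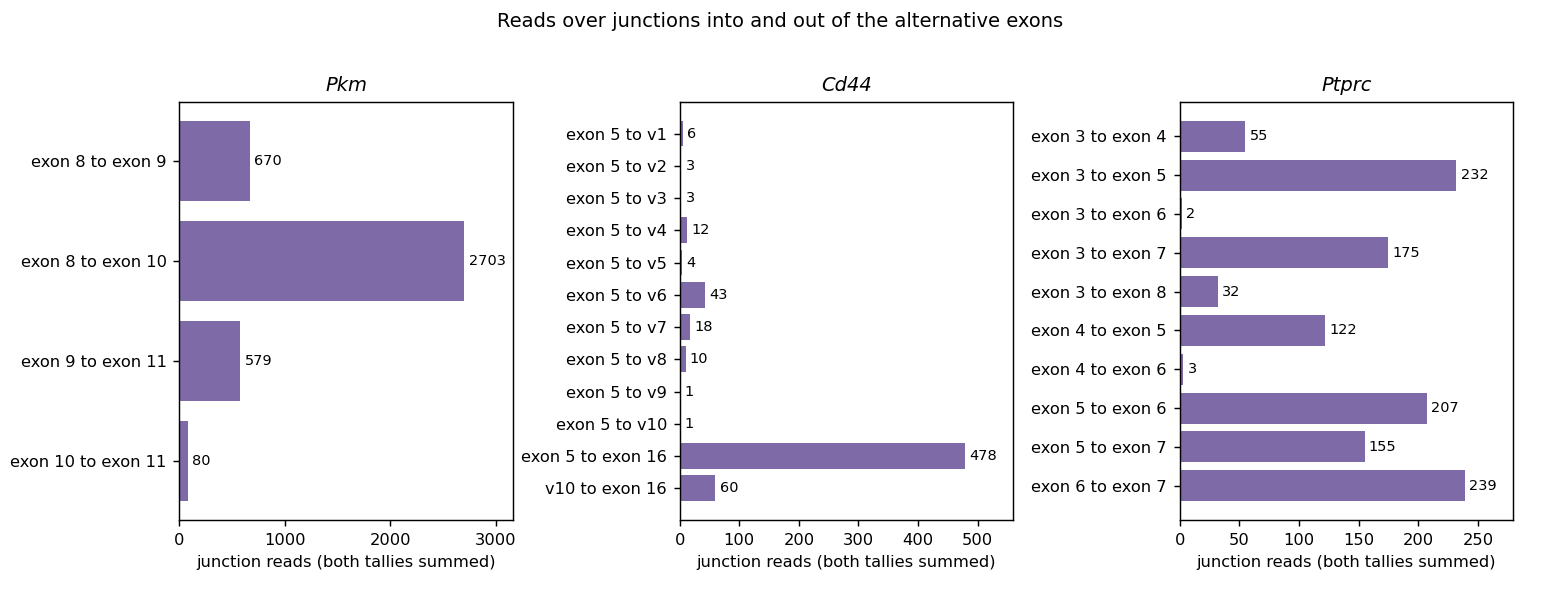
Reads over the splice junctions into and out of the alternative exons of Pkm, Cd44 and Ptprc (bars, number of reads with both libraries summed, linear axes from 0 that differ between panels). The Pkm exon 10 bar is long for the junction from exon 8 (2703) and short for that to exon 11 (80), Cd44 exon 5 joined exon 16 in 478 reads, and Ptprc exon 3 joined exon 5 in 232.

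The unequal tallies were not limited to exon 10. Over the constant introns of Pkm (those in both forms), reads ran from 273 between exons 6 and 7 to 15467 between exons 1 and 2, leaving out the intron between exons 7 and 8, which had 0 reads at its annotated ends. An intron of the same length, 195 bases, placed 2 bases upstream at both ends, had 1447 reads. Counts of single junctions thus varied over a wide range along this gene.

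Cd44 (ENSMUSG00000005087.13) lies on the minus strand at chr2:102811141-102901665. Its standard mRNA joins exon 5 to exon 16 over a block of 10 variable exons of 90 to 207 bases, each a multiple of 3 bases, so that skipping or keeping any of them leaves the reading frame intact. The junctions below are those that define the standard form, the main entry into the variable block, its exit, and the 2 ways out of v6, with capitals for the second exon.
Cd44 exon 5 to exon 16: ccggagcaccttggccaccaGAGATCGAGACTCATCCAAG
Cd44 exon 5 to v6: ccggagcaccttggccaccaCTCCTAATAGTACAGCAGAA
Cd44 v10 to exon 16: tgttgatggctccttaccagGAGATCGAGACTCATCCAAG
Cd44 v6 to v7: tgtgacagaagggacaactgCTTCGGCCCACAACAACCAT
Cd44 v6 to v8: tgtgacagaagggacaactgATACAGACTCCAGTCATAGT

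The standard form was the main Cd44 transcript in both libraries. Cd44-203, which holds no variable exon, had 26.61 TPM in replicate 1 and 25.48 TPM in replicate 2, or 50.6% and 58.4% of the gene (mean 54.5% ± 5.57, SD, n = 2). The 7 transcripts with variable exons summed to 22.29 and 13.77 TPM, or 42.3% and 31.6% (mean 37.0% ± 7.61, SD, n = 2). By TPM, the standard form differed little between libraries (1.04-fold), and the variable class was 1.62-fold higher in replicate 1. The log2 ratio of the gene was -0.27 by TPM and -0.12 on scaled counts. The direction of the small difference in the standard form therefore depends on the scale.

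Among variable transcripts, Cd44-207, with v5, v6, v8, v9 and v10, was the most abundant at 12.79 and 8.92 TPM (24.3% and 20.5% of the gene). Cd44-201, which holds all 10 variable exons, had 2.68 and 0.60 TPM and was 4.47-fold higher in replicate 1. The deposited TPM intervals were apart between libraries for these 2 transcripts and for no other Cd44 transcript. They are also the only ones with the 3197-nt last exon, whereas the last exon of the standard transcript is 1791 nt and those of the other spliced variable transcripts are 205 to 1808 nt, so a read from the far end of the gene can be given only to them.

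The remaining variable transcripts were minor. Cd44-206, with v10 alone, had 2.87 and 0.92 TPM, Cd44-202, with v6 to v10, had 1.61 and 1.42 TPM, and Cd44-205, with v8 to v10, had 1.34 and 0.88 TPM. Cd44-208, with v4 to v10, had 0.72 and 0.85 TPM, and Cd44-204, with v9 and v10, stayed under 1% of the gene at 0.28 and 0.18 TPM. v10 was in all 7, and v1 to v3 were in Cd44-201 alone. Cd44-209, annotated as a retained intron and ending before the variable block, held 3.74 and 4.35 TPM (7.11% and 9.98%).

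**Figure D2:**
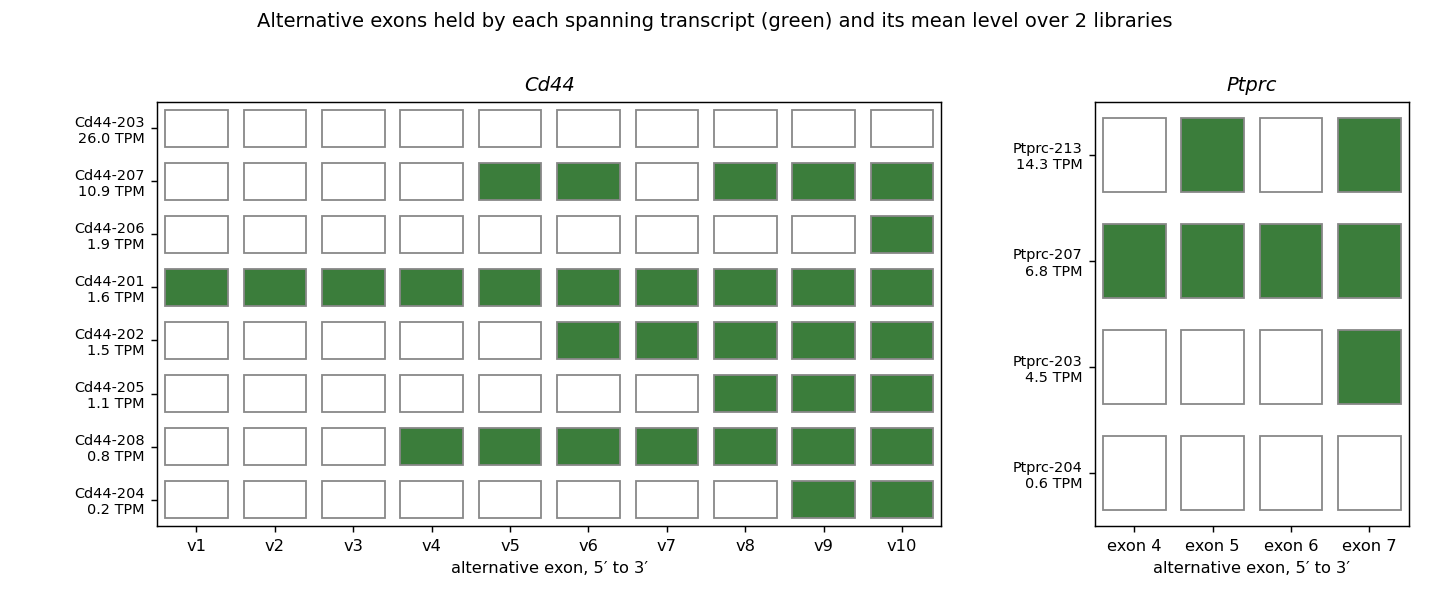
Alternative exons held (green) or skipped (white) by each transcript of Cd44 and Ptprc that spans the alternative region, ordered from the highest mean TPM over 2 libraries at the top (value under each name). Cd44-203 holds no variable exon and leads, and the next, Cd44-207, skips v7; in Ptprc, the transcript with exon 5 but not exons 4 and 6 leads.

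Junction reads gave the variable exons a smaller share than the transcript estimates did. Of 579 reads leaving exon 5, 478 joined exon 16 and 101 joined a variable exon, 17.4% (14.4 to 20.8). Of 539 reads entering exon 16, 61 came from the variable block, 11.3% (8.77 to 14.3), 60 of them from v10. Both intervals lie below the variable share of TPM in either library, 42.3% and 31.6%, and by expected counts that share was higher still, at 53.5% and 42.4%.

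Reads from exon 5 were listed into each of the 10 variable exons, with v6 the main one. Exon 5 joined v6 in 43 reads, 7.43% of the reads leaving it, v7 in 18, v4 in 12, v8 in 10 and v1 in 6, and each of v2, v3, v5, v9 and v10 had 1 to 4 reads. Among junctions with a reproducibility score of 0.1 or less, those into v2, v3, v5, v9 and v10 were absent, and entry was into v1, v4, v6, v7 and v8, a variable share of 15.7% (12.8 to 19.0). The joins to v2, v3 and v7 are in none of the annotated transcripts. Inside the block, reads were fewest near its start and most in its second part: v1 to v2 had 8 reads, v2 to v3 had 4, v3 to v4 had 7, v4 to v5 had 14 and v5 to v6 had 23, while v6 to v7 had 53, v7 to v8 had 34, v8 to v9 had 50 and v9 to v10 had 32.

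The junctions peculiar to Cd44-207 were among the least read. It is the only annotated transcript that joins exon 5 to v5, with 4 reads, or v6 to v8, with 1 read, against 53 reads for v6 to v7, which Cd44-207 lacks. Its estimated level was nevertheless the second of the gene. All 26 annotated introns of Cd44 were in the list, and the 7 constant ones had 249 to 1109 reads.

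The markers that differ between libraries stand beside the variable class as they do beside M1. Squamous epithelium markers ran from 3.89 to 1725 TPM in replicate 1 and from 0 to 1.96 TPM in replicate 2, with Krt6a, Krtdap and Dsg3 listed at 0 there. Of the lung epithelial markers, 7 of 8 were within 2-fold, where 6.66% of all genes were 2-fold apart. Epcam, an adhesion protein of epithelia, had 21.3 TPM in replicate 1 and 36.5 TPM in replicate 2 (log2 ratio 1.00). The part of squamous or lung epithelium in the variable class was not tested.

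Of 19 genes that make, bind or cleave hyaluronan or work with CD44 and had a mean count of 50 or more, 2 were 2-fold higher in replicate 2 and none in replicate 1, beside 2.21% and 4.45% of all genes, and the list's median log2 ratio was -0.05. Spp1, osteopontin, a ligand of CD44, had 118 and 51.1 TPM and lay just inside the 2-fold limit on scaled counts (log2 ratio -0.99). Has1, a hyaluronan synthase, had 1.65 and 3.53 TPM (log2 ratio 1.31), and Lyve1, the hyaluronan receptor of lymphatic endothelium, had 32.8 and 57.1 TPM (1.03). The most abundant were Cd74, which pairs with CD44 as a receptor of the cytokine MIF, at 1883 and 2072 TPM, and Msn, moesin, which links CD44 to actin, at 328 and 270 TPM.

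**Figure D3:**
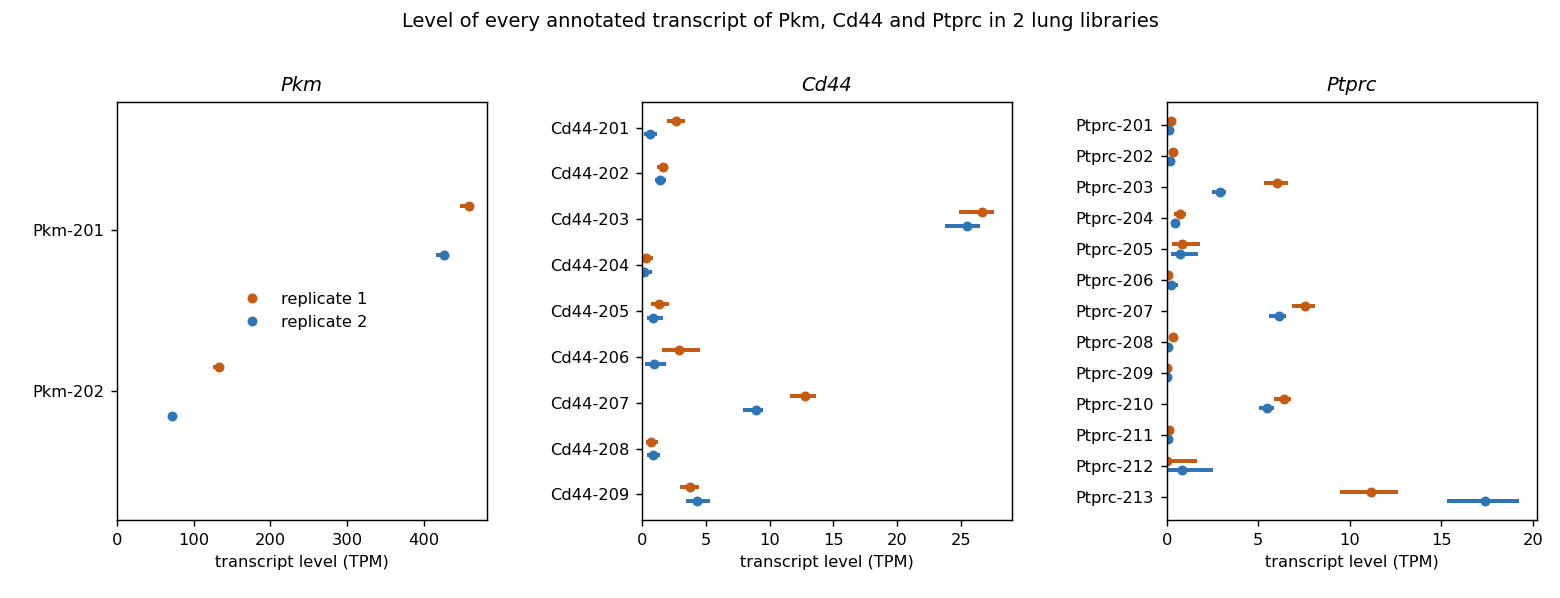
TPM of each of the 24 transcripts in replicate 1 (orange) and replicate 2 (blue), with the deposited TPM interval as a line (the files do not say what level it has; axes differ between panels). The Pkm-202 points are apart at 132.98 and 71.15 TPM, Cd44-203 points lie close together at 26.61 and 25.48 TPM, and Ptprc-213 is lower in replicate 1 (11.14) than in replicate 2 (17.39).

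Ptprc (ENSMUSG00000026395.12) lies on the minus strand at chr1:138062861-138175708. Exons 4, 5, 6 and 7 are 72 to 147 bases long and, like the variable exons of Cd44, all multiples of 3 bases. The junctions out of exon 3 show which segment comes first, and those out of exon 5 show whether the C segment follows, with capitals for the second exon.
Ptprc exon 3 to exon 4: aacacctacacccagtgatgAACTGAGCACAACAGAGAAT
Ptprc exon 3 to exon 5: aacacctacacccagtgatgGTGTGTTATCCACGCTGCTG
Ptprc exon 3 to exon 7: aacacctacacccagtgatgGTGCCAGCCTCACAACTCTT
Ptprc exon 3 to exon 8: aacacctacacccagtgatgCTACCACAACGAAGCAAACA
Ptprc exon 5 to exon 6: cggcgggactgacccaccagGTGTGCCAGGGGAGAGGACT
Ptprc exon 5 to exon 7: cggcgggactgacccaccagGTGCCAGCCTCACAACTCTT

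Of the transcripts that span the region, the one with the B segment alone had the highest TPM in both libraries. Ptprc-213, with exon 5 but neither exon 4 nor exon 6, had 11.14 TPM in replicate 1 and 17.39 TPM in replicate 2, or 33.0% and 50.4% of the gene. Ptprc-207, with exons 4 to 6 (the RABC form), had 7.57 and 6.13 TPM, or 22.4% and 17.8%. Ptprc-203, which skips all 3 and keeps exon 7 (the RO form), had 6.03 and 2.90 TPM, and Ptprc-204, which skips exon 7 as well, had 0.69 and 0.42 TPM. Together the forms with none of exons 4 to 6 held 19.9% and 9.62% (mean 14.8% ± 7.27, SD, n = 2) and were 2.02-fold higher in replicate 1, while the exon 5 form was 1.56-fold higher in replicate 2.

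The deposited TPM intervals of Ptprc-213 (9.47 to 12.6 in replicate 1 and 15.3 to 19.2 in replicate 2), Ptprc-203 (5.30 to 6.62 and 2.48 to 3.25) and Ptprc-207 (6.86 to 8.10 and 5.60 to 6.50) were apart between libraries. Ptprc-213 is an incomplete model of 702 nt that ends within exon 10, and Ptprc-207 and Ptprc-203 are 5074 and 4702 nt. The measure therefore set the order: by expected counts Ptprc-213 held 198 of 3486 fragments in replicate 1 and 302 of 2563 in replicate 2 (5.69% and 11.8%), Ptprc-207 held 38.1% and 41.0%, and the forms with none of exons 4 to 6 held 31.2% and 20.5%.

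Retained introns made up much of the rest. The 8 transcripts so annotated summed to 24.7% of the gene's TPM in replicate 1 and 19.9% in replicate 2. Most of it was Ptprc-210, a single 3384-nt exon at chr1:138117337-138120720 that covers exons 5 and 6 and the intron between them, at 6.38 and 5.49 TPM (18.9% and 15.9%). Ptprc-205 had 0.81 and 0.73 TPM and Ptprc-202 had 0.36 and 0.16 TPM. Ptprc-212, a 415-nt coding model with exon 4, was listed at 0 in replicate 1 and had 0.82 TPM in replicate 2. The other 5 Ptprc transcripts were each under 1% of the gene, and Ptprc-209 was listed at 0 in both.

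Junction reads showed entry at exon 5 and skipping of all 3 exons side by side. Of 496 reads leaving exon 3, 232 joined exon 5 (46.8%, 42.3 to 51.3) and 207 skipped exons 4 to 6 (41.7%, 37.4 to 46.2), 175 of them joining exon 7 and 32 joining exon 8. Exon 4 took 55 reads (11.1%, 8.46 to 14.2), and exon 6 took 2. The skipping share was above the TPM share of the same forms in both libraries. The exon 4 share of reads leaving exon 3 was below the TPM share of the RABC transcript. Exon 4 was left by 125 reads, however, against the 55 that entered it, so its share depends on the side counted.

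Further along the region, reads split at both ends of exon 5. Of 362 reads leaving exon 5, 207 went on to exon 6 (57.2%, 51.9 to 62.3) and 155 skipped to exon 7. Of 354 reads entering exon 5, 232 came straight from exon 3 (65.5%, 60.3 to 70.5) and 122 from exon 4. The join of exon 3 to exon 5 is held only by Ptprc-213, which lacks exon 6, and the join of exon 5 to exon 6 only by Ptprc-207, which has exon 4. No annotated transcript holds exons 5 and 6 without exon 4, the BC combination, and the reads of 1 junction do not say which junctions lay on the same molecule.

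Exons 4 and 6 were rarely joined without exon 5. Of 125 reads leaving exon 4, 122 went to exon 5 and 3 to exon 6, and 207 of 212 reads entering exon 6 came from exon 5. Exon 4 joined exon 7 in 0 of 569 reads entering exon 7, which allows a share of up to 0.527% as 3 reads of the total, or 0.646% as the 95% Clopper-Pearson bound. Of those 569 reads, 239 came from exon 6, 175 from exon 3 and 155 from exon 5. Only 171 reads left exon 7 for exon 8, and the 27 constant introns of the gene had 9 to 525 reads (median 71), so the tallies of single junctions varied widely along this gene too.

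**Figure D4:**
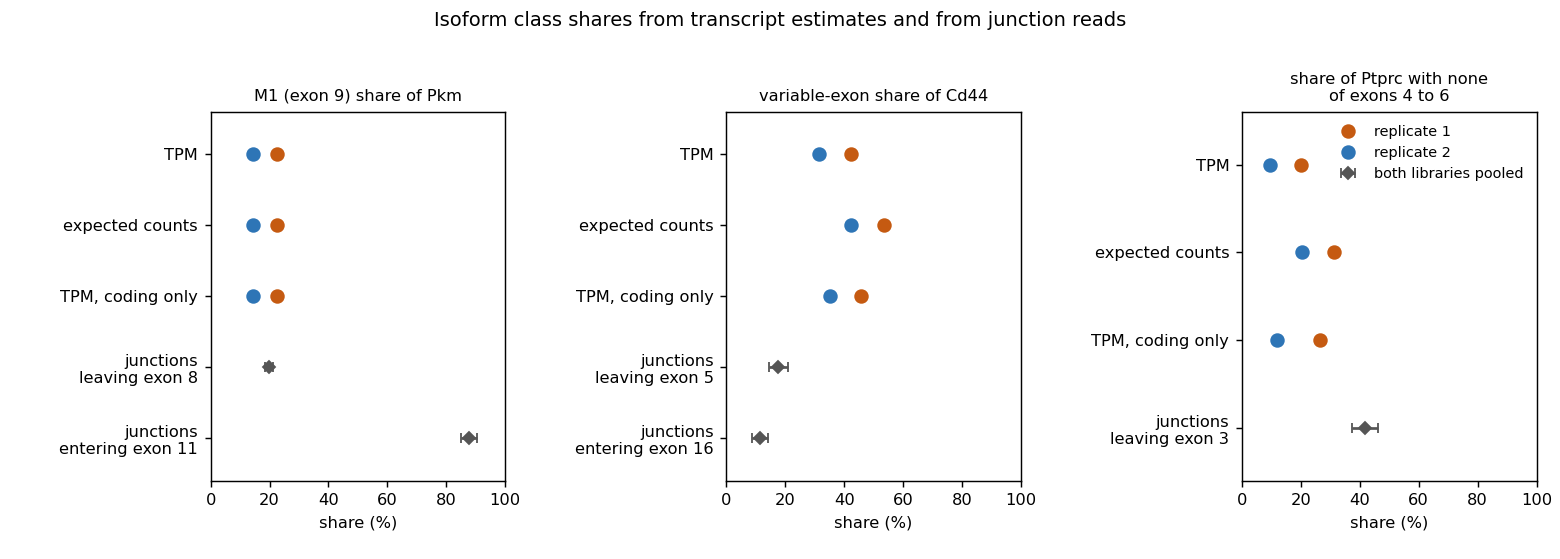
Share of an isoform class in percent for Pkm M1, Cd44 with variable exons and Ptprc with none of exons 4 to 6, from TPM, expected counts and TPM of protein coding transcripts (circles, orange replicate 1, blue replicate 2) and from junction reads (grey diamonds, both libraries summed, bars 95% Clopper-Pearson intervals). The M1 share from reads leaving exon 8 lies among the library values, that from reads entering exon 11 is at 87.9%, the Cd44 junction shares lie below the estimates, and the Ptprc junction share lies above them.

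Markers of most blood cell classes were less than 2-fold apart between the libraries. The 7 pan-leukocyte markers summed to 747 TPM in replicate 1 and 643 TPM in replicate 2, with none 2-fold apart on scaled counts. None of the tested B cell (6), T cell (5), natural killer cell (4) or macrophage and monocyte (8) markers was 2-fold apart. Beside 6.66% of all genes, these counts say little about lists this short. The median log2 ratios were 0.09 for pan-leukocyte, -0.28 for B cell and -0.26 for T cell markers. They were 0.62 for natural killer cell and -0.08 for macrophage and monocyte markers. Of 5 neutrophil markers tested, S100a8, S100a9 and Retnlg were 2-fold higher in replicate 1, beside 4.45% of all genes. The list summed to 126 TPM there against 46.7 TPM in replicate 2. No defining marker of these classes was at 0 in either library. Their part in the isoform shares was not tested.

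Of 19 partners and substrates of CD45, none was 2-fold apart on scaled counts, beside 6.66% of all genes, so the count says little about this list, and their median log2 ratio was 0.06. Lck, the T cell kinase that CD45 activates, had 10.4 and 7.32 TPM, and Lyn, a Src-family kinase of B and myeloid cells, had 94.6 and 192 TPM, with counts giving a log2 ratio of 0.47. Ptprcap, the small protein that associates with CD45, had 35.0 and 38.0 TPM, close to Ptprc itself. The most abundant were the galectins Lgals3, at 272 and 295 TPM, and Lgals1, at 222 and 232 TPM, which bind sugars on CD45.

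The splicing factors known to act on these exons were all present. None of 18 was 2-fold apart on scaled counts, beside 6.66% of all genes, so the count says little about these factors, and their median log2 ratio was -0.01. Ptbp1, which represses Pkm exon 9, had 234 and 206 TPM, and its neuronal relative Ptbp2 had 3.48 and 1.76 TPM. Esrp1 and Esrp2, epithelial factors that favour Cd44 variable exons, had 14.2 and 7.50 TPM (log2 ratio -0.74) and 41.6 and 37.3 TPM (0.05). Hnrnpll, which promotes skipping of the Ptprc exons, had 16.2 and 17.2 TPM (0.29), and Hnrnpl, which also represses them, had 215 and 154 TPM (-0.06). The lower Esrp1 value was in the library with the lower level of the Cd44 variable class. Other listed factors shifted in either direction, such as Hnrnpa1 (log2 ratio -0.69) and Khdrbs1 (0.54). The part of Esrp1 or of any other factor in the isoform shares was not tested.

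Isoform differences of this size between the libraries were found in many genes. Of the 24 transcripts, 14 had a mean count of 50 or more and the TPM intervals of 7 of these were apart, beside 48.3% of 28581 transcripts in the whole table. All 3 genes kept the same main transcript in both libraries, while it differed in 14.2% of the 7376 genes that had several transcripts and reached 5 TPM in each library. The main transcript's share differed by 7.88 percentage points for Cd44 and 8.14 for Pkm, more than in 62.7% and 63.9% of those genes, whose median was 5.19 points. For Ptprc it differed by 17.4 points, more than in 86.5% of them.

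**Figure D5:**
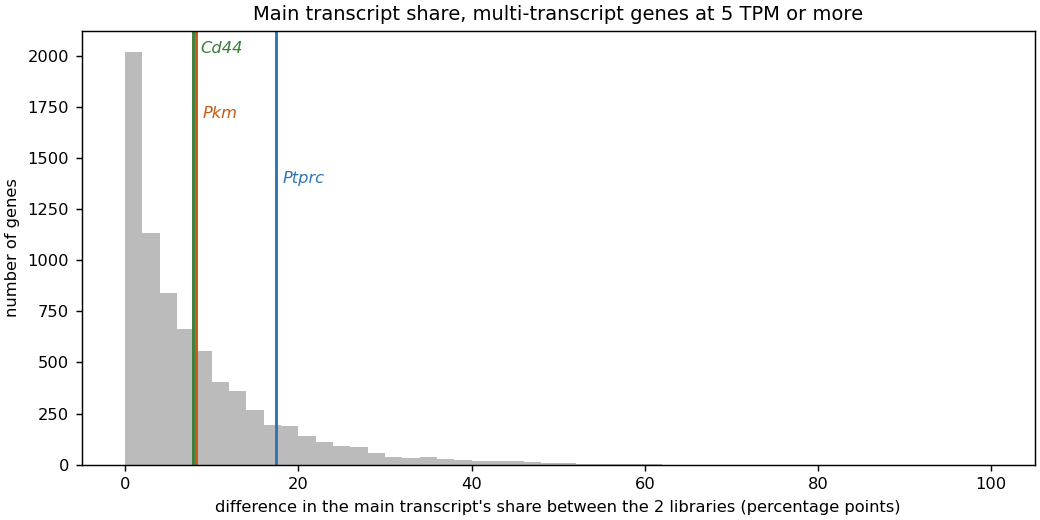
Absolute difference between the 2 libraries in the TPM share of a gene's main transcript (x axis, percentage points; y axis, number of genes) over 7376 multi-transcript genes, with vertical lines for Cd44 (7.88), Pkm (8.14) and Ptprc (17.4). Cd44 and Pkm lie somewhat right of the median of 5.19 points, and Ptprc lies in the tail.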

How the data were processed

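The libraries were made from poly-A RNA over 200 nt with spike-ins and read by stranded paired-end sequencing (76 nt), per the labels. Alignment was to mm10 and quantification used GENCODE M4, per the deposited file lists, which name no programs. The deposited values per gene and transcript are expected counts (estimated fragments, rounded for ratios), TPM, FPKM, each transcript's percent of its gene's TPM, and bounds of a TPM interval of unstated level. The deposited junction list (mm9) gives read counts, summed over both libraries because its separate tallies are not tied to a replicate by any label, and a reproducibility score from 0 to 1 whose definition is not stated.

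Transcript structures came from GENCODE M21 on mm10, which holds all 24 transcript IDs. M21 also has Pkm introns that neither quantified transcript holds, so the M1 and M2 percents are shares of those 2 transcripts. Junctions were matched to mm10 introns by strand, length and spacing, with no conversion of coordinates: 26 of 26 introns of Cd44, 38 of 38 of Ptprc and 15 of 21 of Pkm were found. Log2 ratios used TMM (edgeR 4.0.16, R 4.3.3) with a prior count of 2 over all genes, leaving out 26345 rows that are not genes of the annotation (704282 and 461069 counts); DESeq2 1.42.0 size factors were an alternative. Shares and folds carry Clopper-Pearson intervals (scipy 1.17.1), which cover counting error only, as reads without molecular identifiers are not independent molecules. Ratios were tested on simulated counts. The comparison of main transcripts was checked only by swapping the 2 highest transcripts of some genes in a copy of replicate 1. All 24 transcripts are accounted for, those at 1% or more of the gene in either library by name. The members, marker lists and pathway lists were chosen with earlier results of these data known. Contigs were not used.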

Additional observations from a re-analysis of the deposited data

How the results depend on the processing

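Of 68 alternative values for 23 results, 41 stayed within the spread between libraries, the counting interval or 1.5 times the count, and 27 did not. FPKM, a different scale, gave 36.6 for Cd44, 26.1 for Ptprc and 415 for Pkm. The log2 ratios of Cd44, Ptprc and Pkm were -0.25, -0.32 and -0.16 by library size, and -0.27, 0.032 and -0.25 by log2(TPM + 0.1) and -0.27, 0.031 and -0.25 by log2(TPM + 1), so the direction of Ptprc held only on counts. Genes 2-fold apart numbered 1744 at a mean count of 10 or more and 3254 with no filter. By expected counts the shares were 48.0% for Cd44 variable, and for Ptprc 8.74% for exon 5 only, 39.6% for exons 4 to 6 and 25.8% for none of them. Over protein coding transcripts alone, Ptprc exons 4 to 6 held 26.0%. Junction reads gave 87.9% M1 entering exon 11, and 17.4% and 11.3% for Cd44 variable leaving exon 5 and entering exon 16. For Ptprc, reads leaving exon 3 gave 11.1% for exon 4 and 41.7% for none of exons 4 to 6. By expected count, the main transcript differed in 9.16% of genes. With junctions scored 0.1 or less only, exon 5 took 100% of reads leaving exon 4 and gave 100% of those entering exon 6. In single libraries the shares ran from 14.3% to 22.5% for M1, 31.6% to 42.3% for Cd44 variable, 33.0% to 50.4% for Ptprc exon 5 only, 17.8% to 22.4% for exons 4 to 6 and 9.62% to 19.9% for none. The causes were not tested. No paired analysis was possible because both libraries belong to 1 group. Depth limits the Cd44 entries with 1 to 4 reads, and 2 libraries give an SD with little precision.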

Other observations

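The junction list held reads over introns that no annotated transcript of these genes has. In Pkm, the most read was the 195-base intron with 1447 reads. It has the length of the annotated intron between exons 7 and 8 and differs from it only by the 2-base shift given above. Exon 8 joined a point 1616 bases downstream in 11 reads, at chr9:59519881-59521496 of mm9, and a point inside exon 10 in 7 reads, over an intron of 3533 bases. Reads also entered Pkm exon 2 from points between exons 1 and 2 that the annotation lacks, numbering 9, 9 and 5 for the most read of them. An annotated splice point between these exons gave 22. In Ptprc, 17 reads entered exon 2 over an unannotated 129-base intron, beside 277 over the annotated 81-base intron from exon 1. In Cd44, the join of exon 5 to v7 had 18 reads, and 18 unannotated junctions had 42 reads in all, 0.771% of those within the gene.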
